A study of Mus musculus with 189 samples.

Results

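Ezh1, Ezh2, Eed, Suz12, Jarid2 and Phf19 are the 6 genes of Polycomb repressive complex 2 (PRC2) and its cofactors that were picked by name among 192 quantitative PCR assays on mouse oocytes and preimplantation embryos, and all 6 passed the quality control of the study, as most assays did. The main set comprised 11 MII oocytes (mature unfertilized eggs), 14 zygotes and samples of 2-cell (21), 3-cell (7), 4-cell (12), 8-cell (27), 16-cell (26) and 32-cell (50) embryos. Oocytes came from superovulated C57BL/6 x DBA/2 F1 females, and embryos came from such females mated to C57BL/6 males. The sources name no genetic change and no treatment apart from culture in KSOMaa medium at low oxygen and, for blastomeres, removal of the zona with proteinase and separation with trypsin. Ages of the females are not given in the sources used here. Blastomeres of an embryo share their source, so values were averaged to 58 units (11 oocytes, 14 zygotes, and 8, 3, 6, 7, 2 and 7 embryos of the 2- to 32-cell stages), and p-values measure the spread between these units. Blastomeres from unnamed 2-cell embryos were counted as 1 unit. The blastomere samples 2c.A.e1, 2c.A.e2 and 2c.A.e3 carry no blastomere number, so how many cells they hold is not given, and the first was averaged with the 2 numbered blastomeres of its embryo, and 3 undissociated embryos each of the 2-, 4- and 8-cell stages are among the units. The 26 samples labelled as 16-cell came from only 2 embryos, and their blastomere numbers run up to 20 and 19.

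PRC2 places methyl groups on lysine 27 of histone H3, a mark of genes held silent by Polycomb. Ezh2 and Ezh1 are its alternative catalytic subunits, while Eed, which binds the finished mark, and Suz12, which holds the complex together, are needed with either of them. Jarid2 and Phf19 are substoichiometric cofactors that help to bring the complex to chromatin, Jarid2 in one form of PRC2 and the Polycomb-like protein Phf19 in another.

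Values are log2 levels relative to 3 control genes: 30 minus the threshold cycle (Ct) of a gene, minus the mean of the same quantity for Hnrnpr, Ssu72 and Ube2e1. One unit corresponds to a doubling at perfect amplification. Levels of different genes are not compared here, because assays differ in efficiency and in amplicon. Only the changes of genes are. A gene was called different between stages at an adjusted p below 0.05 (limma, Benjamini-Hochberg over all genes tested). Shares of all genes are given at this threshold only, also where members are counted at an unadjusted p. The mean Ct of the control genes ranged from 11.9 to 20.2 over the main samples (median 15.8), and rose from a stage mean of 12.9 in oocytes to 17.7 at the 32-cell stage, a higher Ct meaning less RNA in the sample. Ezh2, Eed, Suz12 and Ezh1 were detected in all 189 samples. Jarid2 was undetected (Ct of 30) in 3 main samples, 2 blastomeres of the 2-cell and 1 of the 4-cell stage. Phf19 was undetected in 81. In dilutions of embryonic stem cell (ESC) RNA the Ct changed per doubling of input by −0.966 to −1.15 for Ezh2, Eed, Suz12, Ezh1 and Jarid2 and by −0.852 for Phf19 in the 4-step series, and by −1.07 to −1.23 for all 6 in the other series. Any change shared by the 3 control genes shifts all other genes: between oocytes and late embryos the median of all genes tested shifted by −0.35 on this scale, but by −3.91 in the normalised table of the authors and by −4.65 without normalisation. Stage markers fitted the labels only in part. The oocyte gene Dazl went from 3.49 in MII oocytes to −13.85 at the 16-cell stage, and ZP3 and Brdt fell too. Nanog, a gene of pluripotent cells, rose from −17.08 to 1.26, but Sox2, another such gene, fell from −3.91 to −10.65. Of the trophectoderm genes, Dppa1 fell from −0.12 to −4.76 and Id2 from −0.54 to −2.36. The other pluripotency and trophectoderm markers were higher at the 16-cell stage than in oocytes. The trophectoderm gene Cdx2 averaged −0.05 at the 16-cell stage but −6.03 in the separated 32-cell embryos, where 16 of 50 samples had no signal for it.

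**Figure D1:**
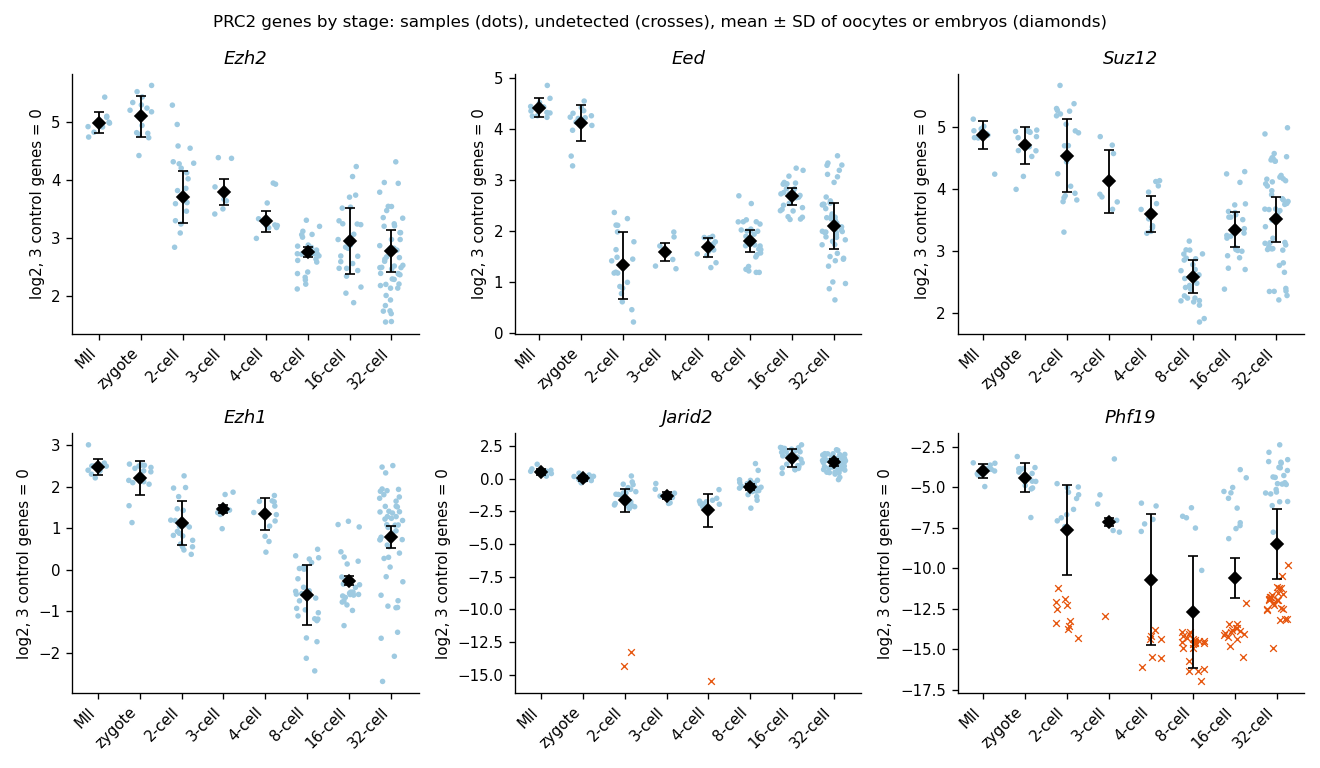
Level of the 6 genes (log2, 3 control genes at 0) against stage from MII oocyte to 32-cell embryo. Each dot is a sample, crosses mark undetected samples, and diamonds with bars give the mean ± SD of oocytes, zygotes or embryo means. Ezh2 goes from 4.99 in oocytes to 2.77 at the 32-cell stage, Jarid2 from 0.53 to 1.26, and Phf19, undetected in many samples, is the most scattered.

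None of the 6 genes was called between oocytes and zygotes (0 of 6 by limma, against 1.92% of all genes; 1 of 6, Jarid2, at an unadjusted p below 0.05), with differences of −0.49 to 0.10, though 1 was called with undetected values left out. Between MII oocytes and 16-/32-cell embryos all 6 were called, as were 84.6% of all genes. The core subunits Ezh2, Eed and Suz12 as well as Ezh1 and Phf19 were lower in late embryos (5 of 6, against 46.8% of all genes), whereas Jarid2 was higher relative to the control genes. The median difference of the 6 was −2.05, against −0.35 for all genes tested. Eed was 4.55-fold lower (−2.19, SE 0.17, n = 9 late embryos and 11 oocytes), Ezh2 4.52-fold (−2.18, SE 0.15), Ezh1 3.79-fold (−1.92, SE 0.19) and Suz12 2.62-fold (−1.39, SE 0.16), with adjusted p between 1.54e-19 and 7.32e-11. Relative to the control genes the fall of the core was not gradual, and its subunits fell at different steps. In whole embryos without control genes, Ezh2, Eed and Suz12 all fell from zygote to 2-cell stage, and none was called at the 4- or the 8-cell stage.

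Ezh2 lay between 4.74 and 5.43 in MII oocytes (median 4.97) and between 4.42 and 5.63 in zygotes (median 5.19). In 2-cell embryos it lay between 3.09 and 4.28 (median 3.79), below every oocyte and zygote. The 2.62-fold fall from zygote to 2-cell stage (−1.39, SE 0.14, adjusted p = 2.28e-12) was 1 of 5 among the 6 genes at this step, at which 39.1% of all genes fell and 68.6% were called in either direction. Relative to the control genes Ezh2 then declined slowly. It averaged 3.80 ± 0.22 (SD, n = 3) at the 3-cell stage, 3.29 ± 0.18 (n = 6) at the 4-cell stage and 2.76 ± 0.09 (n = 7) at the 8-cell stage. From the 2- to the 4-cell stage the difference was not called (−0.41, adjusted p = 0.0640 by limma). Measured against the median difference of all genes, the steps to the 4- and to the 8-cell stage were 0.02 and −0.02. The step from the 4- to the 8-cell stage was called (−0.53, SE 0.18, adjusted p = 0.0135), but was −0.05 and not called when samples were set to their medians. The 2 embryos of the 16-cell stage averaged 2.55 and 3.36, and the 7 of the 32-cell stage lay between 2.26 and 3.18 (median 2.81). No step after the 8-cell stage was called in these separated embryos, whereas the 3 whole 32-cell embryos, outside this fit, had 1.04, 0.79 and 0.61.

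Of the core subunits Eed had the largest difference between zygote and 2-cell stage. It lay between 4.24 and 4.86 in MII oocytes (median 4.36), between 3.28 and 4.56 in zygotes (median 4.22) and between 0.55 and 2.25 in 2-cell embryos (median 1.35). The groups of zygotes and 2-cell embryos did not overlap, and the difference was 6.94-fold (−2.79, SE 0.17, adjusted p = 3.98e-21). From there Eed was level at 1.59, 1.69 and 1.81 on average at the 3-, 4- and 8-cell stages. At the 16-cell stage it was higher, with 2.57 and 2.80 in the 2 embryos against 1.48 to 2.03 in 8-cell embryos (0.87, SE 0.30, adjusted p = 0.0253), a direction that turned to −0.49 without normalisation and to −1.0 in the normalised table of the authors. Measured against the median difference of all genes, which a shift of all genes cannot move, Eed was higher by 0.55 at this step. It was not called with samples set to their medians (0.47, adjusted p = 0.242) or without Ube2e1 (0.78, adjusted p = 0.0703), nor without either 16-cell embryo (0.99 without mor.4 and 0.76 without mor.5). At the 32-cell stage it lay between 1.47 and 2.72 (median 2.14).

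Suz12 was not called at the first cleavage relative to the control genes. It lay between 4.24 and 5.13 in MII oocytes (median 4.90), 4.00 and 4.95 in zygotes (median 4.84) and 3.83 and 5.38 in 2-cell embryos (median 4.59), and it was the only one of the 6 genes not called between zygote and 2-cell stage (−0.17, SE 0.16, adjusted p = 0.345), although it fell by 2.17 in whole embryos without control genes. The control genes moved apart at the first cleavage: the mean Ct of Hnrnpr went from 14.08 to 16.23 and that of Ube2e1 from 11.26 to 15.27. The median difference of all genes was −0.33 there, but 0.09 without Hnrnpr and −0.84 without Ube2e1, and the value of Suz12 shifts with it. Relative to the control genes Suz12 fell at the next steps instead. At the 4-cell stage it lay between 3.29 and 3.95 (median 3.57), lower by 0.93 (SE 0.20, adjusted p = 4.15e-04), though 0.35 higher where no normalisation was used. At the 8-cell stage it lay between 2.20 and 3.02 (median 2.56), lower by a further 1.01 (SE 0.20, adjusted p = 3.91e-05). Without normalisation this last step was −0.69 and not called by limma (adjusted p = 0.323). The step from the 2- to the 4-cell stage was called for 3 of the 6 genes and for 32.7% of all genes, that from the 4- to the 8-cell stage for 4 of 6 and for 49.4%. The 2 embryos of the 16-cell stage had 3.15 and 3.54, above all 7 of the 8-cell stage (0.76, SE 0.29, adjusted p = 0.0478), with −0.61 without normalisation and −1.12 in the normalised table of the authors. It was not called without either 16-cell embryo (0.95 without mor.4 and 0.56 without mor.5). This was 1 of 3 calls among the 6 genes, against 28.2% of all genes. Suz12 stayed at 2.85 to 3.98 in 32-cell embryos (median 3.60).

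Set against Ezh2 in the same sample, which removes the control genes, the core changed its proportions at the first cleavage. Eed minus Ezh2 went from −0.97 ± 0.30 (SD, n = 14) in zygotes to −2.37 ± 0.80 (n = 8) in 2-cell embryos, a difference of −1.40 (SE 0.18, adjusted p = 1.18e-09). Suz12 minus Ezh2 went the other way, from −0.39 ± 0.28 to 0.83 ± 0.61 (1.22, SE 0.18, adjusted p = 2.92e-08). These were 2 of the 5 other genes of the set, and 73.5% of all genes were called relative to Ezh2 at that step. Eed then regained ground on Ezh2 between the 2- and the 4-cell stage (0.77, SE 0.22, adjusted p = 0.00795) and between the 4- and the 8-cell stage (0.65, SE 0.23, adjusted p = 0.0155). The units of these stages mix whole embryos and separated blastomeres. In whole embryos alone the contrasts were smaller: from zygote to 2-cell stage Eed fell by 3.71, Ezh2 by 3.13 and Suz12 by 2.17. From the 2- to the 4-cell stage Eed moved there by 0.20 and Ezh2 by 0.06, neither called. In 16-/32-cell embryos the difference between Eed and Ezh2 was within the error of that in oocytes (−0.01, SE 0.18, adjusted p = 0.974), whereas Suz12 stood 0.79 higher relative to Ezh2 (SE 0.18, adjusted p = 9.94e-05).

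Ezh1 and Ezh2 are both catalytic subunits, Ezh2 being the enzyme of dividing cells and Ezh1 the one that also persists in cells that no longer divide. Their upstream sequences are shown because this pair diverges below, and they differ in a textbook promoter element, the CCAAT box. The 250 bases before the annotated start of each gene (RefSeq, GRCm38.p6) lie at chr6:47595031-47595280 on the minus strand for Ezh2 and at chr11:101226464-101226713 on the minus strand for Ezh1. They are printed 5′ to 3′, with CCAAT and its complement ATTGG in capitals.
Ezh2: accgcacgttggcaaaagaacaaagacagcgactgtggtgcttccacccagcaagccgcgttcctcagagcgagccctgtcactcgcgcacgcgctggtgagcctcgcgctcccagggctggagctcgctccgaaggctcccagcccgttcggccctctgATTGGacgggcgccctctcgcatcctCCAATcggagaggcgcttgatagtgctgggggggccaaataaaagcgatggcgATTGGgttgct
Ezh1: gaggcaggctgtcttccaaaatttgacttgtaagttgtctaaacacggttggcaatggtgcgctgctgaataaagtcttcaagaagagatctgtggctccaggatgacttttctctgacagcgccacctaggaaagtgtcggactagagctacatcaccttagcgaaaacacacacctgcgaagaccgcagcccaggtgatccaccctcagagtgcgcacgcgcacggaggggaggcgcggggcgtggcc
The window of Ezh2 holds 3 matches and that of Ezh1 none. Of 32851 RefSeq promoters, 33.8% hold at least 1 match on either strand in the same 250 bases. CpG dinucleotides number 23 in the Ezh2 window and 14 in that of Ezh1, against a median of 6 over all promoters. In the windows of the other members, Suz12 has 1 CCAAT match, Eed and Phf19 have none, and of the 2 annotated starts of Jarid2 one has 1 match and the other none. A match is a description of the letters and says nothing of a bound factor.

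Ezh1 lay between 2.21 and 3.01 in MII oocytes (median 2.46), between 1.13 and 2.54 in zygotes (median 2.37) and between 0.46 and 2.26 in 2-cell embryos (median 1.06). It fell 2.12-fold from zygote to 2-cell stage (−1.08, SE 0.19, adjusted p = 1.57e-06). At the 4-cell stage it lay between 0.74 and 1.66 (median 1.51), and at the 8-cell stage between −1.65 and 0.49 (median −0.42), so that the ranges of the 4- and 8-cell stages did not meet. This second fall was 3.87-fold (−1.95, SE 0.24, adjusted p = 9.69e-10). The 2 embryos of the 16-cell stage had −0.34 and −0.19, and those of the 32-cell stage lay between 0.28 and 1.14 (median 0.83), above both. The difference of 1.05 (SE 0.34, adjusted p = 0.0343) made Ezh1 the only one of the 6 genes called between the 16- and the 32-cell stage, against 10.9% of all genes. It was −0.92 without normalisation, −0.10 in the normalised table of the authors and −0.025 with the whole 16- and 32-cell embryos added. It was not called with Hnrnpr or Ube2e1 left out of the control genes, nor without either 16-cell embryo (0.98 without mor.4 and 1.13 without mor.5). Ezh1 exceeded the median difference of all genes by 0.89 at this step.

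The difference between Ezh1 and Ezh2 in a sample does not depend on the control genes. No member was called relative to Ezh2 between oocyte and zygote (2.58% of all genes called). At an unadjusted p below 0.05 by limma it was 3 of 5, a threshold at which all genes were not counted. The 5 differences share Ezh2 as reference, which itself differed by 0.10 relative to the control genes (not called). Between the 8- and the 16-cell stage only Jarid2 was called relative to Ezh2 (22.6% of all genes). Ezh1 minus Ezh2 averaged −2.52 ± 0.12 (SD, n = 11) in MII oocytes, −2.89 ± 0.26 (n = 14) in zygotes, −2.58 ± 0.54 (n = 8) in 2-cell embryos, −2.35 ± 0.14 (n = 3) in 3-cell embryos and −1.95 ± 0.40 (n = 6) in 4-cell embryos. Ezh1 thus rose relative to Ezh2 from the 2- to the 4-cell stage by 0.64 (SE 0.21, adjusted p = 0.0236, 2 of the 5 genes and 23.2% of all genes called). It then fell to −3.38 ± 0.66 (n = 7) at the 8-cell stage, 2.69-fold (−1.43, SE 0.22, adjusted p = 2.22e-07, 3 of 5 and 43.9% called). The 2 embryos of the 16-cell stage had −3.55 and −2.89, and at the 32-cell stage the difference was back at −1.99 ± 0.26 (n = 7, from −2.36 to −1.48), above both (1.23, SE 0.31, adjusted p = 0.00350, 1 of 5 and 12.9% called). Without the embryo mor.5 the last step was 0.90 and not called, and without mor.4 it was 1.56 and called. The whole embryos, which are not in this fit, went the other way, with −2.58, −2.73 and −2.51 at the 16-cell stage and −3.21, −3.44 and −3.47 at the 32-cell stage, a difference that was not tested. Over the whole course the difference between Ezh1 and Ezh2 was not called to change: relative to Ezh2, Ezh1 differed between oocytes and 16-/32-cell embryos by 0.26 (95% confidence interval −0.10 to 0.61, adjusted p = 0.171), a comparison in which 3 of the 5 genes and 81.9% of all genes were called relative to Ezh2. Without mor.5 it was 0.42 and called (adjusted p = 0.0314). Relative to the mean of the 3 core subunits the movements of Ezh1 were called too. That from the 2- to the 4-cell stage was 0.55 (SE 0.18, adjusted p = 0.0205, with 37 of all genes called), and was not called with all labelled samples (adjusted p = 0.0537), in single cells (0.211) or with every sample as a replicate (0.0751). The later ones were −1.48 (SE 0.19, adjusted p = 2.44e-09) from the 4- to the 8-cell stage and 1.25 (SE 0.27, adjusted p = 5.52e-04, 15.7% called) from the 16- to the 32-cell stage. A small rise from zygote to 2-cell stage was called there in addition (0.37, SE 0.15, adjusted p = 0.0227, 75.8% called), though not in single cells (0.14). Between oocyte and zygote none of the 3 genes set against the core was called (2.61% of all genes, and none of the 3 at an unadjusted p below 0.05).

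**Figure D2:**
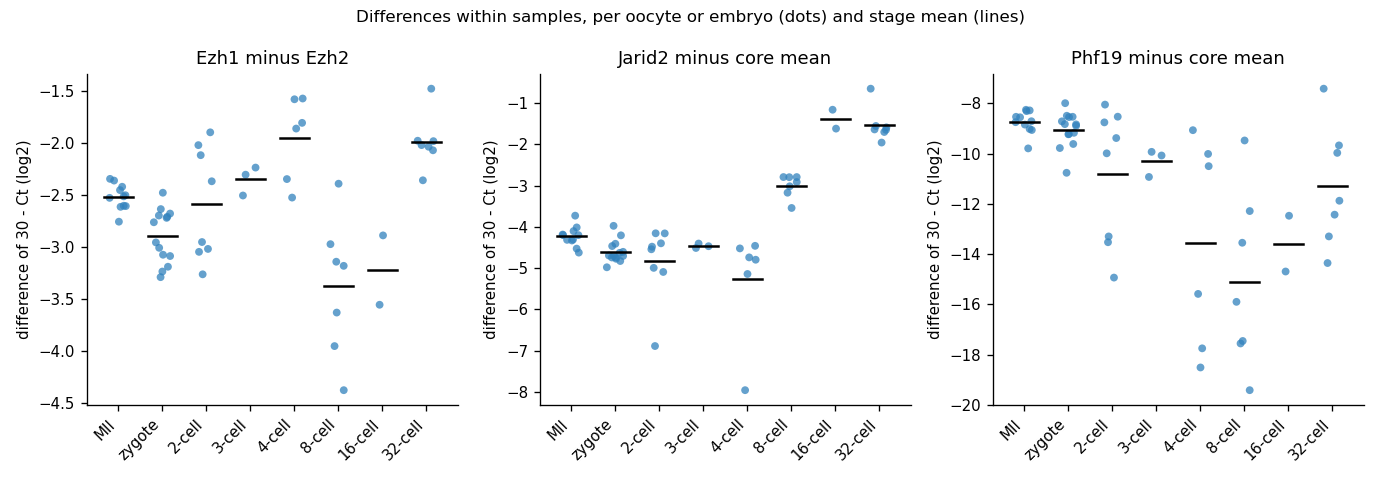
Differences between members within a sample, averaged per oocyte or embryo, against stage: Ezh1 minus Ezh2, Jarid2 minus the mean of the core subunits Ezh2, Eed and Suz12, and Phf19 minus that mean (log2). Ezh1 minus Ezh2 is lowest at the 8- and 16-cell stages (−3.38 and −3.22), while Jarid2 minus core rises from −5.27 at the 4-cell stage to −1.39 at the 16-cell stage.

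Jarid2 went a course of its own. It lay between 0.20 and 1.11 in MII oocytes (median 0.47) and between −0.31 and 0.43 in zygotes (median −0.06). In 2-cell embryos it lay between −3.42 and −0.80 (median −1.37), 3.22-fold below zygotes (−1.69, SE 0.25, adjusted p = 2.97e-08). The lowest levels were at the 4-cell stage, between −4.94 and −1.71 (median −1.97). The step from the 2- to the 4-cell stage was −0.76 (SE 0.30, adjusted p = 0.0450). It rested in part on an undetected blastomere and was −0.46 with undetected values left out, still called, but 0.52 without normalisation. Jarid2 then rose at both following steps. In 8-cell embryos it lay between −0.94 and −0.38 (median −0.49), above all 4-cell embryos (1.79, SE 0.31, adjusted p = 2.60e-06). The 2 embryos of the 16-cell stage had 1.13 and 2.07, above all earlier embryos and all oocytes (2.22 over the 8-cell stage, SE 0.45, adjusted p = 1.34e-04). The call was lost in the normalised table of the authors (0.34, adjusted p = 0.566) and without normalisation (0.86, adjusted p = 0.517). The 32-cell embryos lay between 1.00 and 1.68 (median 1.18). From the 4- to the 16-cell stage the mean thus went from −2.41 to 1.60.

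Late embryos had 1.75-fold more Jarid2 than MII oocytes relative to the control genes (0.81, SE 0.25, adjusted p = 0.00285), but −2.75 in the normalised table of the authors and −3.49 without normalisation, and 0.50 and not called without Ube2e1 (adjusted p = 0.0602). Relative to the median difference of all genes, Jarid2 was 1.16 higher in late embryos. The comparison with the core needs no control gene. Jarid2 minus the core mean was −4.23 ± 0.24 (SD, n = 11) in MII oocytes, −4.60 ± 0.26 (n = 14) in zygotes, −4.84 ± 0.90 (n = 8) in 2-cell embryos and −5.27 ± 1.34 (n = 6) in 4-cell embryos, none of these steps being called. It rose to −3.01 ± 0.28 (n = 7) at the 8-cell stage (2.26, SE 0.33, adjusted p = 7.44e-08), when 2 of the 3 genes set against the core and 46.4% of all genes were called. It stood at −1.62 and −1.16 in the 2 embryos of the 16-cell stage (1.61, SE 0.48, adjusted p = 0.00865, 1 of 3 and 21.6% called) and at −1.54 ± 0.41 (n = 7) at the 32-cell stage. Without mor.5 the step to the 16-cell stage was 1.38 and not called relative to the core. Between oocytes and 16-/32-cell embryos Jarid2 rose 6.62-fold relative to the core (2.73, SE 0.27, adjusted p = 1.78e-13, 2 of 3 and 83% called).

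Phf19 was detected in all 25 oocytes and zygotes, in 11 of 21 samples of the 2-cell stage, 6 of 7 of the 3-cell stage, 5 of 12 of the 4-cell stage, 5 of 27 of the 8-cell stage, 11 of 26 of the 16-cell stage and 24 of 50 of the 32-cell stage. Its level lay between −4.95 and −3.48 in MII oocytes (median −3.94) and between −6.86 and −3.10 in zygotes (median −4.10). Embryo means, with undetected samples at a Ct of 30, lay between −12.07 and −4.77 at the 2-cell stage (median −6.71) and between −16.99 and −6.88 at the 8-cell stage (median −13.51). The fall from zygote to 2-cell stage was called (−3.22, SE 0.98, adjusted p = 0.00297), as was that from the 2- to the 4-cell stage (−3.09, SE 1.19, adjusted p = 0.0412), which was 0.074 in single cells. Late embryos lay 4.98 below oocytes (SE 0.99, adjusted p = 9.95e-06) and 3.06 below them relative to the core (SE 1.0, adjusted p = 0.00475). Much of this size is the Ct of 30 given to undetected samples: with those left out, the fall from zygote to 2-cell stage was −1.51 (adjusted p = 5.95e-04), late embryos lay 1.02 below oocytes (adjusted p = 0.0158) and the step from the 2- to the 4-cell stage was −0.99 and not called (adjusted p = 0.134). In late samples where Phf19 was detected, the median level was −5.68 in 16-cell and −4.55 in 32-cell embryos. Fewer copies in each cell and fewer cells with any copy cannot be told apart in embryo means. The study described Phf19 as mainly maternal from these same samples, so its direction here is not independent evidence.

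Whole embryos, with no control gene, give the transcript content of an entire conceptus, and 3 each were measured from the 2- to the 32-cell stage. From zygote to 2-cell embryo all 6 genes fell (77.6% of all genes called, 59.6% lower, all-gene median −1.79). Eed had 18.4, 17.8 and 16.2 in 2-cell embryos on the scale of 30 minus Ct, against 20.9 to 21.6 in zygotes (−3.71), and Suz12, the least changed, still fell by 2.17. No further change was called at the 4-cell stage (0 of 6, and 0.641% of all genes, by limma; 1 of 6, Phf19, at an unadjusted p below 0.05). At the 8-cell stage Jarid2 rose and Ezh1 fell, 2 of the 6 genes, and 25.6% of all genes were called. Jarid2 had 15.1, 16.6 and 16.7 against 13.4, 14.1 and 14.4 in 4-cell embryos (2.21, SE 0.47, adjusted p = 4.73e-04), and Ezh1 had 15.8, 16.6 and 16.6 against 17.1, 17.4 and 17.7 (−1.12, SE 0.37, adjusted p = 0.0204). The call of Ezh1 was lost without the embryo 4c.e1 (−1.12), 4c.e3 (−0.97) or 8c.e2 (−0.88). Ezh2, Eed, Suz12 and Phf19 were not called at that step.

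On the scale of 30 minus Ct all 6 genes were higher in whole embryos of the 16-cell stage than in those of the 8-cell stage (80.1% of all genes called, 79.5% higher, all-gene median 2.79), and 5 were lower again at the 32-cell stage (65.4% called, 64.1% lower, all-gene median −2.46). Ezh1 fell most, from 18.13, 19.49 and 19.71 in whole 16-cell embryos to 14.32, 14.89 and 15.17 in whole 32-cell embryos (−4.32, SE 0.37, adjusted p = 2.41e-11). Against oocytes, whole 32-cell embryos had less Ezh1 (−4.76), Ezh2 (−3.90), Eed (−3.12) and Suz12 (−2.0), 4 of 6 genes where 83.3% of all genes were called and 45.5% were lower, whereas Jarid2 (−0.08, adjusted p = 0.841) and Phf19 (−0.85, adjusted p = 0.490) were not called. Relative to the control genes, whole 16-cell embryos lay near the 2 separated ones for Ezh1 (−0.03, −0.14 and −0.27 against −0.34 and −0.19), Ezh2 (2.24 to 2.59 against 2.55 and 3.36) and Eed (2.42 to 2.59 against 2.57 and 2.80). At the 32-cell stage whole embryos had lower values than separated ones for Ezh1, Ezh2, Eed, Suz12 and Jarid2. The share of all genes that did so was not counted, so this cannot be read as particular to the members. Their mean control-gene Ct was 11.97 to 13.51, against 17.66 on average in the separated ones. Ezh1 was −2.17, −2.65 and −2.86 in the whole embryos, against 0.28 or higher in the means of the separated ones, and Ezh2 0.61 to 1.04 against 2.26 or higher. Eed was 0.70 to 1.36 against 1.47 or higher, Suz12 2.48 to 2.69 against 2.85 or higher and Jarid2 −0.18 to 0.39 against 1.00 or higher. Phf19, at −5.75 to −4.51, was not below. The marker score described in the next paragraph was negative in these 3 embryos (−4.41 to −3.49), whereas it averaged 3.84 over the separated ones. The part of this in the difference was not tested.

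**Figure D3:**
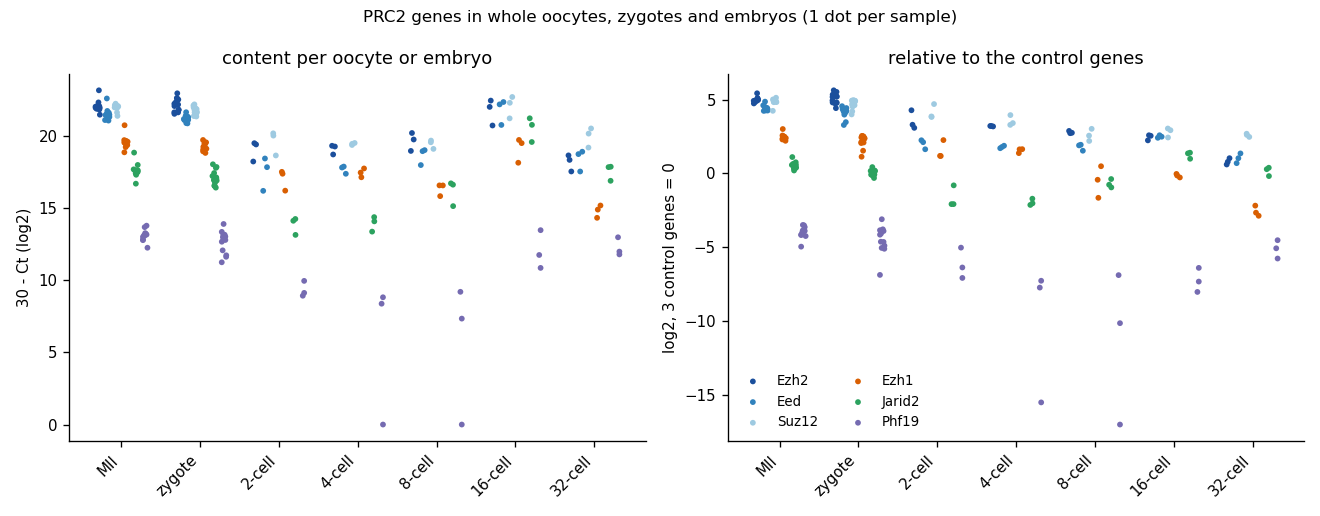
The 6 genes in oocytes, zygotes and whole embryos of the 2- to 32-cell stages. The left panel gives 30 minus Ct, which needs no control gene, and the right panel the level relative to the 3 control genes (both log2). Jarid2 climbs from 13.9 on average in whole 4-cell embryos to 20.5 in whole 16-cell embryos, and Ezh1 drops to 14.8 in whole 32-cell embryos.

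In the late embryos the 76 blastomere samples, 52 of them single cells and the others groups of 2 to 7 cells, were ordered by a marker score: the mean of the inner cell mass (ICM) and epiblast genes Sox2, Nanog, Fgf4, Esrrb and Klf2 minus the mean of the trophectoderm (TE) genes Cdx2, Gata3, Krt8, Id2 and Tspan8. The slope of each gene on the score was taken within each of the 9 embryos. Ezh1 was the only one of the 6 genes whose slope was called, against 20.5% of the 146 genes outside the score. It rose by 0.132 per unit of score (SE 0.024, adjusted p = 0.00356), and by 0.108 relative to Ezh2 (SE 0.022, adjusted p = 0.00834, 1 of 5 and 18.6% called) and 0.097 relative to the core (SE 0.018, adjusted p = 0.00355, 1 of 3 and 21% called). The slope was positive in 6 of 9 embryos. The 3 with a negative one, blast.10, blast.11 and blast.12, had no sample with a score below 0, and the sums of squares of their scores were 8.52 to 13.2, against 212 to 685 in the others. Embryos were weighted by this sum, and without weights the slope of Ezh1 was −0.017 and not called (adjusted p = 0.935). The study used Ezh1 as an ICM gene on these same samples, so the direction is not independent evidence.

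The size of the contrast can be read from single embryos. In blast.01, 4 samples with a score below 0 averaged −0.78 for Ezh1 and the 8 above 0 averaged 1.55. In blast.08 the values were −2.39 (n = 2) and 0.94 (n = 8), in blast.13 −0.81 (n = 2) and 1.48 (n = 4), and in blast.09 0.54 (n = 5) and 1.33 (n = 4). The contrast was smaller in the 16-cell embryos, with −0.51 (n = 9) and 0.04 (n = 4) in mor.4 and −0.58 (n = 9) and 0.68 (n = 4) in mor.5. In each of these 6 embryos Ezh1 was higher above 0. Over all 16-cell samples the medians of Ezh1 were −0.58 (n = 18) below 0 and 0.32 (n = 8) above it, and over all 32-cell samples −0.75 (n = 13) and 1.22 (n = 37). These medians pool samples of different embryos. Embryo means below 0 ran from −2.39 to 0.54 at the 32-cell stage, on both sides of the −0.51 and −0.58 of the 16-cell embryos. Above 0 the 32-cell means ran from 0.83 to 1.55, higher than the 0.04 and 0.68 of the 16-cell embryos. Of the 16-cell samples 18 of 26 lay below 0, but only 13 of 50 of the 32-cell samples, and the part of this make-up in the stage difference of Ezh1 was not tested. An isolated group of ICM cells had −0.24 for Ezh1 and an isolated TE group −1.81, 1 sample each, so this difference has no replicate check. Their scores were −0.95 and −5.54. Ezh2 differed between them as well, with 2.41 in the ICM and 0.84 in the TE group, and Ezh1 minus Ezh2 was −2.65 in both.

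**Figure D4:**
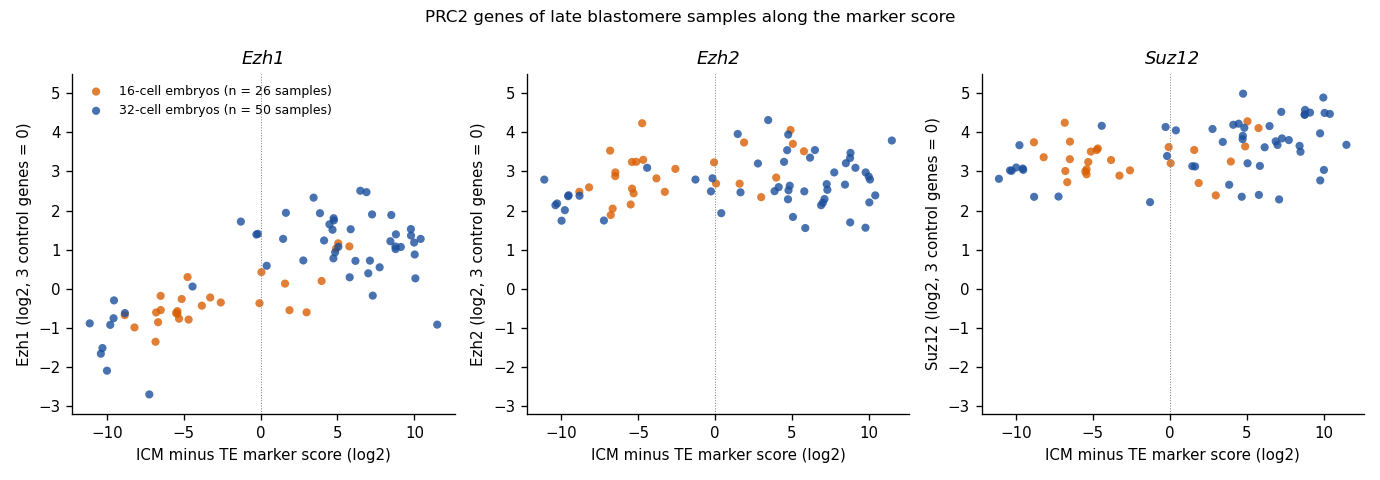
Ezh1, Ezh2 and Suz12 (log2, 3 control genes at 0) in 26 samples of 16-cell and 50 samples of 32-cell embryos against the ICM minus TE marker score (log2), each point a single blastomere or a small group. Ezh1 rises along the score (slope 0.132), with medians of −0.75 below 0 and 1.22 above 0 at the 32-cell stage, while the slopes of Ezh2 (0.025) and Suz12 (0.047) were not called.

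No other member had a slope that was called over the 9 embryos. Suz12 had a slope of 0.047 (SE 0.018, adjusted p = 0.0992), Eed of 0.035 (SE 0.019, adjusted p = 0.223), Ezh2 of 0.025 (SE 0.016, adjusted p = 0.331) and Jarid2 of −0.012 (SE 0.014, adjusted p = 0.604). For Ezh2 the 95% confidence interval, −0.012 to 0.061, lay below that of Ezh1, 0.078 to 0.186. At the 32-cell stage the medians below and above 0 were 2.38 and 2.67 for Ezh2, 1.93 and 2.16 for Eed, 3.04 and 3.83 for Suz12 and 1.37 and 1.16 for Jarid2, with overlapping ranges throughout. Within embryos, Pearson's r over the 76 samples, given as a description only, was 0.62 for Ezh1 with Eed, 0.45 for Eed with Suz12, 0.44 for Ezh2 with Eed and 0.37 for Ezh1 with Ezh2, while Jarid2 and Ezh1 gave 0.00. All pairs share the control genes and the RNA content of their samples. The spread between samples of 1 embryo at the 32-cell stage was likewise larger for Ezh1 (pooled SD 1.24) than for Ezh2 (0.60), Eed (0.54), Suz12 (0.69) or Jarid2 (0.53), and its embryo means were close to each other (SD 0.26).

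Phf19 was detected in 12 of 13 samples of the 32-cell stage with a score below 0 and in 12 of 37 above 0. Among single cells of that stage the numbers were 6 of 7 and 7 of 25. The single cells above 0 had slightly less RNA by the control genes (median Ct 18.2 against 17.7), and the part of this was not tested. At the 16-cell stage the order was the other way, with Phf19 in 6 of 18 samples below 0 and 5 of 8 above. The slope of its level was −0.160 (SE 0.114, adjusted p = 0.381) over the 9 embryos, and −0.29 (adjusted p = 0.0430) in 32-cell embryos alone. It was −0.27 and called when mor.5 was left out. The slopes of the 32- and 16-cell embryos differed by −0.65 (SE 0.20, adjusted p = 0.169), so the difference between the stages did not pass the test. Where Phf19 was detected at the 32-cell stage, its level was similar on both sides, with medians of −4.49 below and −4.76 above 0.

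**Figure D5:**
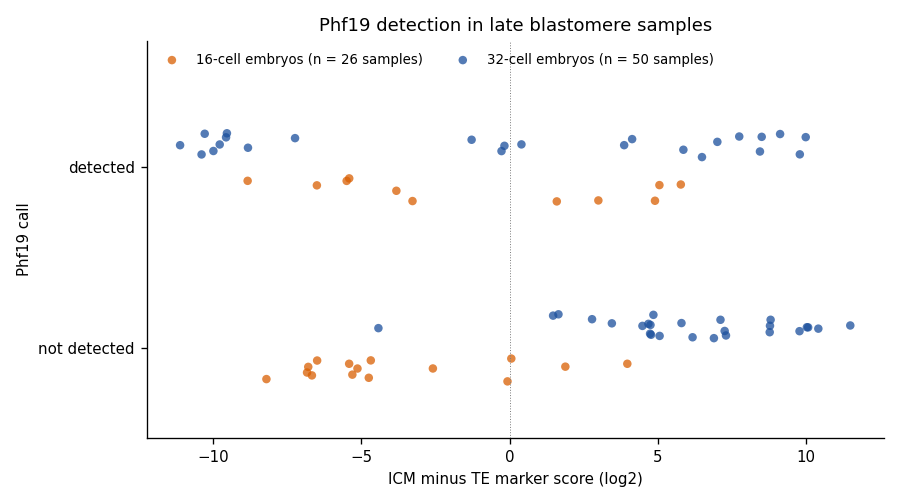
Detection of Phf19 in each late blastomere sample against the ICM minus TE marker score (log2), with detected samples in the upper and undetected samples in the lower row, for 16-cell (n = 26) and 32-cell (n = 50) embryos. At the 32-cell stage 12 of 13 samples below 0 and 12 of 37 above 0 had a signal.

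A list of 14 other genes of the Polycomb and H3K27 pathways was counted beside the members. From MII oocytes to 16-/32-cell embryos 4 of 14 were higher and 10 lower, with a median of −2.92, against −0.35 for all genes tested. Of all genes, 84.6% were called there and 46.8% were lower. The extremes were Cbx6 (6.37), a PRC1 subunit that reads the mark, and Scml2 (−12.1), another PRC1-associated protein. Mtf2, a Polycomb-like cofactor as Phf19 is, went opposite to it: it rose 3.73-fold from zygote to 2-cell stage (1.90, SE 0.26, adjusted p = 4.22e-09) and 7.47-fold from oocytes to late embryos (2.90, SE 0.26, adjusted p = 8.28e-15). Along the marker score it fell (slope −0.080, SE 0.015, adjusted p = 0.00439), whereas Scmh1 (0.116) and Sfmbt1 (0.157) rose. These were 3 of 14 genes in all, near the share of 20.5% over the 146 genes outside the score. The H3K27 demethylases fell over the whole course, Kdm6a by 3.09 and Kdm6b by 0.94. At single steps 2 of the 14 genes were higher and 7 lower from zygote to 2-cell stage (68.6% of all genes called). At each of the next 2 steps, to the 4- and 8-cell stages, it was 1 and 6 (32.7% and 49.4% called). It was 2 and 2 at the 16-cell stage (28.2% called) and 1 and 0 at the 32-cell stage (10.9% called).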

How the data were processed

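The authors ran one-step reverse transcription and target amplification on lysed cells, then qPCR on microfluidic BioMark chips. They deposited Ct values, a score of PCR cycles given here as deposited (30 for undetected), for 192 assays and 189 samples, and a normalised table in log2 units. The methods name Hnrnpr, Ssu72 and Ube2e1 as control genes, but the deposited log2 values average 0 in each of the 189 samples over Gapdh, Hspa8 and Lmnb1, the only triple of assays that does. Assays that the authors marked as failed (36), ESC RNA, isolated groups, 6 undissociated late embryos (16- and 32-cell) and 3 samples left out by the study stayed out of the main set. No sequencing is involved, so sensitivity was read from the control-gene Ct.

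Values were 30 minus Ct relative to Hnrnpr, Ssu72 and Ube2e1. They were averaged per oocyte or embryo and fitted with limma 3.58.1 (R 4.3.3) over all stages. Genes were set likewise against Ezh2 and against the core, in whole embryos without control genes, and as weighted slopes per embryo on the marker score. The fits were tested on simulated data. Other values used Python 3.11.15 with pandas 2.3.3. Promoters came from RefSeq by symbol (6 of 6 matched). The members, lists and tests were chosen with earlier results of these data known.

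Named genes are the members, the control genes, the 2 most correlated genes per member, and Mtf2, Kdm6a, Kdm6b and up to 2 extremes of a fixed list of 14. Stage markers were a fixed list too. Scmh1 and Sfmbt1 were named after their values were seen. Alternatives covered control genes, normalisation, undetected values, sample sets, units, weights, the score and left-out embryos.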

Additional observations from a re-analysis of the deposited data

Results flagged for a closer look

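Over 30 groups of 4 to 10 embryos, 4 had 1 value far from the rest by Dixon's test, where chance gives about 1 in 20. The 4-cell embryo 4c.e4 had the lowest Eed mean of its stage (1.34, n = 6). The whole 2-cell embryo 2c.e3 had the highest Ezh1 mean (2.26, n = 8). The 4-cell embryo 4c.e6 had the lowest Jarid2 mean (−4.94, n = 6), and it holds the blastomere in which Jarid2 was undetected. Among the slopes of Ezh1 on the marker score, that of blast.11 was the lowest (−0.642, 9 embryos), from 3 samples.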

How the results depend on the processing

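Of 1010 values of single members under the alternatives, 932 kept direction and side of the threshold, 59 lost the call, 4 gained it and 15 reversed. Without normalisation the reversed values were 0.35 (Suz12) and 0.52 (Jarid2) for 4-cell minus 2-cell, −0.49 (Eed) and −0.61 (Suz12) for 16-cell minus 8-cell, −0.92 (Ezh1) for 32-cell minus 16-cell and −3.49 (Jarid2) for 16-/32-cell minus MII. In the normalised table of the authors they were −1.0 (Eed), −1.12 (Suz12), −0.10 (Ezh1) and −2.75 (Jarid2) for the last 3 comparisons. The others were Phf19 from the 2- to the 4-cell stage in single cells (0.074), Ezh1 from the 16- to the 32-cell stage with whole embryos added (−0.025), Ezh2 in whole 16- against 8-cell embryos relative to the control genes (−0.33), and the unweighted slopes of Ezh1 (−0.017) and Phf19 (0.00325). The cause was not tested.

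Counts of members called moved in 40 of 367 cases, and counts over all genes in 54 of 367, so the share over all genes moved as well. It is not set beside each count in this paragraph, so none of these counts can be read as particular to the members. The counts of members were as follows. For zygote minus MII, 1 was called with undetected values left out. For 4-cell minus 2-cell it was 1 without Ube2e1, 0 in single cells and 1 with whole 16- and 32-cell embryos added. For 8-cell minus 4-cell it was 2 without normalisation. For 16-cell minus 8-cell it was 1 without Ube2e1, 1 with sample medians and 0 without normalisation. For 32-cell minus 16-cell it was 0 without Hnrnpr or Ube2e1, 2 with sample medians, 4 without normalisation and 3 in the table of the authors or with every sample as a replicate. Relative to Ezh2, every sample as a replicate gave 4 for 16-cell minus 8-cell and 3 for 32-cell minus 16-cell. Relative to the core, 4-cell minus 2-cell gave 0 with all labelled samples, single cells or every sample as a replicate, and this last gave 2 at each of the 16- and 32-cell steps. For the slope it was 0 without normalisation or weights, 2 without Ssu72 or in 32-cell embryos alone, and 3 with every sample as a replicate. In whole embryos relative to the control genes it was 1 for zygote minus MII and 3 for 16-cell minus 8-cell.

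Leaving out 1 embryo in turn gave 1 to 3 members called for 16-cell minus 8-cell, with 18 to 44 of all genes. For 32-cell minus 16-cell it gave 0 to 1 (6 to 17 of all genes), and 0 to 1 relative to Ezh2 (3 to 14). Relative to Ezh2 it gave 3 to 4 for 16-/32-cell minus MII (127 to 128). Relative to the core it gave 0 to 1 for 16-cell minus 8-cell (19 to 24). Both slopes gave 1 to 2 (18 to 35, and 15 to 25 relative to Ezh2). Whole 8- minus 4-cell embryos gave 1 to 3 (32 to 54). Label numbers do not pair samples: the median correlation of deviations was −0.0014 over 285 pairs that carry the same number. With the number as a replicate block and every sample as a replicate, 3 members were called for 32-cell minus 16-cell. Phf19 was undetected in 81 samples, and the part of assay sensitivity in this was not tested.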

Other observations

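For each member, the genes with the most similar course over the 58 oocytes and embryos were sought by Pearson's r, as a description. They were Mapk3 (0.927) and Suv39h2 (0.914) for Ezh2, ASF1A (0.916) and Cxxc1 (0.908) for Eed, Whsc1 (0.956) and Sfmbt1 (0.917) for Suz12, ASF1B (0.899) and Clock (0.890) for Ezh1, Pou5f1 (0.815) and Hat1 (0.753) for Jarid2, and Nsd1 (0.819) and Smyd3 (0.814) for Phf19. The median r over all genes was 0.28 to 0.30 for Ezh2, Eed, Suz12 and Ezh1, 0.26 for Phf19 and 0.04 for Jarid2. All points share the stages and the control genes.

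ESC RNA, not an embryo sample, gave for 3 repeats of 200 pg a level relative to the control genes of 3.62 ± 0.20 (SD) for Ezh2, 2.96 ± 0.09 for Eed, 2.59 ± 0.17 for Suz12, −0.24 ± 0.10 for Ezh1, 2.25 ± 0.17 for Jarid2 and −3.39 ± 0.15 for Phf19. Ezh1 minus Ezh2 lay between −3.99 and −3.09 over all 10 ESC samples. Jarid2 was 1.90 or higher in the 9 ESC samples with a signal, against a highest 32-cell embryo mean of 1.68, and was undetected in the other. Phf19 was −3.83 or higher in all 10, against a highest such mean of −5.08.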
